A study of Homo sapiens with 15 samples.

Results

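High mobility group (HMG) chromatin proteins were followed through 5 genes, HMGA1, HMGA2, HMGB1, HMGB2 and HMGB3, which were picked by symbol from the deposited gene count table of cultured cells. The table lists 57736 genes, of which 15994 had counts high enough to be tested, and all 5 HMG genes were among these. The cells were IMR90, a fibroblast line established from human fetal lung, and every library came from total RNA (KAPA RNA HyperPrep chemistry, 75-bp paired-end reads on an Illumina NextSeq instrument). The 15 libraries formed 5 groups of 3: growing cells in the control condition, senescent cells in the control condition, senescent cells carrying a short hairpin RNA against TXNRD1 (shTXNRD1), senescent cells given the vehicle DMSO, and senescent cells given TRi-1 (Tri-1 in the sample titles), an inhibitor of the TXNRD1 protein. TXNRD1 is thioredoxin reductase, the selenium-containing enzyme that keeps thioredoxin reduced. The labels leave unstated how senescence was brought about, how much TRi-1 was given and for how long, what the control of the hairpin was, and if replicates came from separate cultures, so the p-values measure only the spread between these samples, which may be technical.

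HMG proteins are small, abundant and non-histone, and they bend or open DNA without reading a strict sequence. The HMGA proteins bind the minor groove of AT-rich DNA through AT-hook motifs, are abundant in embryonic and tumour cells, and are known as building blocks of the heterochromatin foci of senescent fibroblasts. The HMGB proteins bind bent DNA through paired HMG boxes. HMGB1 also leaves the nucleus of stressed and senescent cells and then acts as an alarm signal whose activity depends on the oxidation of its cysteines, while loss of HMGB2 from chromatin is a known early event of senescence.

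Levels are given as CPM, counts scaled to a common library size after adjustment of the library totals by the trimmed mean of M-values (TMM), so a level can be compared between libraries for 1 gene but not between genes. Differences are log2 fold changes with their standard error (SE), and a gene is called changed at an adjusted p under 0.05 in the quasi-likelihood test of edgeR, fitted over all 15 libraries and adjusted by Benjamini-Hochberg over all genes tested. Total counts ran from 18033076 to 28909046 per library. TXNRD1 stood at 1779, 1603 and 1525 CPM in the growing libraries, at 506, 511 and 528 CPM in the senescent control, and at 21.0, 21.6 and 25.3 CPM with the hairpin. It stood at 430.2, 399 and 395 CPM with DMSO and at 429.6, 420.4 and 443 CPM with TRi-1. The hairpin libraries thus matched their label, with a log2 fold change of -4.51 ± 0.08 (SE; edgeR adjusted p = 2.02e-13) against the senescent control, and TXNRD1 RNA was not called different between TRi-1 and DMSO (0.08, adjusted p = 0.483). TXNRD1 RNA was called lower with DMSO than in the senescent control (-0.34 ± 0.07, edgeR adjusted p = 0.00526). At least 9 of 10 fibroblast markers were above 1 CPM in every library, while 6 leukocyte markers summed to 0.793 to 8.16 CPM, 5 endothelial markers to 0.595 to 9.81 CPM and 6 epithelial markers to 45.8 to 82.8 CPM. The count-weighted mean GC content of the genes read differed between replicates of a group, and 4 libraries (growing replicate 1, shTXNRD1 replicates 2 and 3, and DMSO replicate 1) lay over 0.5 percentage points under the next library of their group. The plot of HMG levels by library shows all values that follow.

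**Figure D1:**
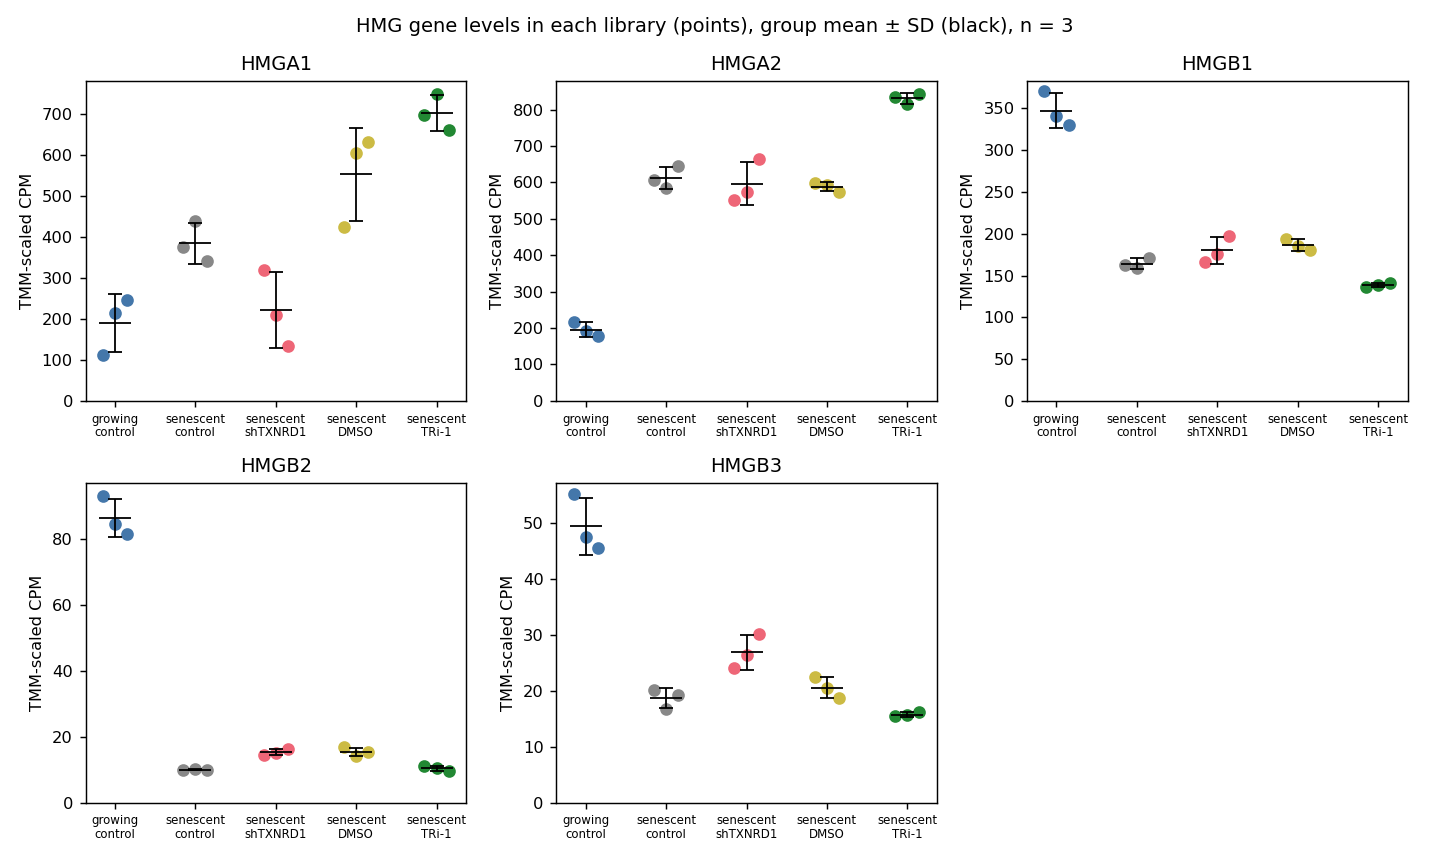
Level of each HMG gene (TMM-scaled CPM, axes from 0) in each of the 15 libraries, by group, with the group mean and SD (n = 3) in black. HMGA2 sits between 178 and 217 CPM in growing cells and at 552 CPM or more in every senescent library, and HMGB2 between 81.7 and 93.0 CPM in growing cells and at 16.8 CPM or less in every senescent library.

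HMGA2, the HMGA protein of embryonic tissues and the classical target of the let-7 microRNAs, was measured at 217, 191 and 178 CPM in the growing libraries and at 606, 585 and 644 CPM in the senescent control. With the hairpin it stood at 552, 573 and 664 CPM. With DMSO it stood at 599.8, 592 and 574 CPM, and with TRi-1 at 834, 816 and 844 CPM. Every senescent library was above every growing one, and the 3 TRi-1 libraries were above the 12 others, whereas the senescent control, hairpin and DMSO libraries overlapped. HMGA2 was 3.12-fold higher in the senescent control than in growing cells (log2 fold change 1.64 ± 0.08, SE; edgeR adjusted p = 3.89e-10). It was also 1.41-fold higher with TRi-1 than with DMSO (0.50 ± 0.08, edgeR adjusted p = 5.26e-04). No change was called with the hairpin, where the log2 fold change was -0.04 ± 0.08 with a 95% interval from -0.20 to 0.13 (edgeR adjusted p = 0.726). That value turned positive with upper-quartile scaling (0.013) and with only the compared groups fitted (0.024), and it became a called difference of -0.12 when gene GC content was corrected for (edgeR adjusted p = 0.0131). Fewer cells of a kind and less RNA per cell cannot be told apart in such bulk samples.

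The let-7 microRNAs are shown for the seed that defines the family: all 8 mature let-7 members in the RefSeq table (GRCh38.p14) carried the same bases 2 to 8, in capitals here, of which 3 members are printed 5′ to 3′.
hsa-let-7a-5p: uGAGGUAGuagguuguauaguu
hsa-let-7b-5p: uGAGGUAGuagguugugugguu
hsa-let-7c-5p: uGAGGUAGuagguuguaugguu
The DNA letters that pair with this seed, CTACCTC on the transcript's own strand, were sought in the 3′ untranslated region of the principal GENCODE v29 transcript of each HMG gene. HMGA2 (ENST00000403681, 3003 bases of 3′ untranslated region) held 4 such stretches, printed 5′ to 3′ with the seed match in capitals, and HMGA1 (ENST00000311487, 1347 bases) held 1.
HMGA2 site 1: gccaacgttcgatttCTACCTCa
HMGA2 site 2: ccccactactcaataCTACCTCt
HMGA2 site 3: ttgacttgcaaagacCTACCTCc
HMGA2 site 4: aatcaaaacacactaCTACCTCt
HMGA1 site 1: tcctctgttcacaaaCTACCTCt
HMGB1, HMGB2 and HMGB3 held no such stretch, and shorter matches to the seed were not sought in any of the genes. Of 1871 untranslated regions within 20% of the length of that of HMGA2, 14.1% held at least 1 match and 0.107% held 4 or more. For HMGA1 the share with at least 1 was 8.27% of 2261 regions. For the HMGB genes, which held none, most regions of like length also held none. The share with at least 1 was 23.5% for HMGB1, 2.70% for HMGB2 and 14.1% for HMGB3. A match is a description of the letters, and let-7 itself was not analysed here.

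Of 8 tested genes of the LIN28 and let-7 axis (the RNA-binding proteins LIN28 and IGF2BP and the enzymes that cut or use microRNAs), 1 was called higher and 6 lower in the senescent control than in growing cells, with a median log2 fold change of -0.29 against 0.03 over all genes tested, of which 27.4% were called higher and 29.5% lower. IGF2BP2, an RNA-binding protein known as an HMGA2 target, fell by 0.81 on the log2 scale, from 172 to 98.1 CPM (edgeR adjusted p = 2.75e-09). AGO2, the slicing Argonaute, rose from 21.6 to 42.1 CPM (0.96 ± 0.09, edgeR adjusted p = 4.08e-07). LIN28B, which blocks let-7 maturation, had 0 counts in the growing and senescent control libraries and was not tested. With the hairpin 0 genes of this axis were called higher and 4 lower (median -0.09), beside 25.8 and 24.8% of all genes tested. With TRi-1 against DMSO 1 was called higher, DGCR8 of the microRNA-processing complex (0.32 ± 0.06, edgeR adjusted p = 0.00288), and 0 lower. Over all genes tested 7.64% were called higher and 12.2% lower there.

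HMGA1, the more widely expressed HMGA protein, was read at 111, 215 and 246 CPM in growing cells and at 375, 439 and 340.0 CPM in the senescent control. The hairpin libraries stood at 319.6, 210.2 and 134 CPM. The DMSO libraries stood at 423, 603 and 630.4 CPM and the TRi-1 libraries at 696, 747 and 661 CPM. Within 3 of the groups (growing, hairpin and DMSO) the replicates lay far apart, yet the senescent control was above every growing and every hairpin library. HMGA1 was 2.02-fold higher in the senescent control than in growing cells (log2 fold change 1.01 ± 0.31, SE; edgeR adjusted p = 0.0148). The call was lost without growing replicate 1 (0.74, adjusted p = 0.0538) and without senescent control replicate 2 (0.91, adjusted p = 0.0523). With the hairpin it was 1.74-fold lower than in the senescent control (-0.80 ± 0.31), at an edgeR adjusted p of 0.0497. That call was lost without any 1 of the 3 senescent control libraries (adjusted p = 0.0880, 0.140 and 0.0612 for replicates 1, 2 and 3) and without hairpin replicate 2 or 3 (0.121 and 0.163). Between TRi-1 and DMSO the libraries did not overlap, but the difference of 0.35 ± 0.31, with an interval from -0.33 to 1.02, was not called (edgeR adjusted p = 0.483).

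The spread of HMGA1 between replicates followed the GC content of the libraries. In each of the 5 groups the order of the 3 HMGA1 levels was the order of the 3 library GC values, as was so for 5.24% of the genes tested, and for HMGA2 the order was the reverse in each of the 5 groups, as for 2.04% of the genes tested. The mean GC of the growing libraries was 47.4, 48.4 and 48.7%, and that of the hairpin libraries 48.5, 47.8 and 47.0%. The HMGA1 gene itself has a GC content of 61.4%, against a median of 48.5% over the genes tested. Its SD within groups was 0.427 on the log2 scale, and 98.4% of 870 genes within 1 log2 unit of its level had a smaller one. With gene GC content corrected for, the senescence difference of HMGA1 was 0.60 (edgeR adjusted p = 7.88e-06) and the hairpin difference -0.37 (adjusted p = 5.86e-04), both called and both smaller than without the correction. Without the lowest library of the growing, hairpin and DMSO groups they were 0.74 (adjusted p = 0.0081) and -0.54 (adjusted p = 0.0355). Without all 4 low-GC libraries, which leaves 1 hairpin library that is assumed to vary like the other groups, the senescence difference was 0.74 and called (adjusted p = 0.00132), and the hairpin difference was -0.27 and not called (adjusted p = 0.199). The part of library GC content in these differences was not otherwise tested.

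**Figure D2:**
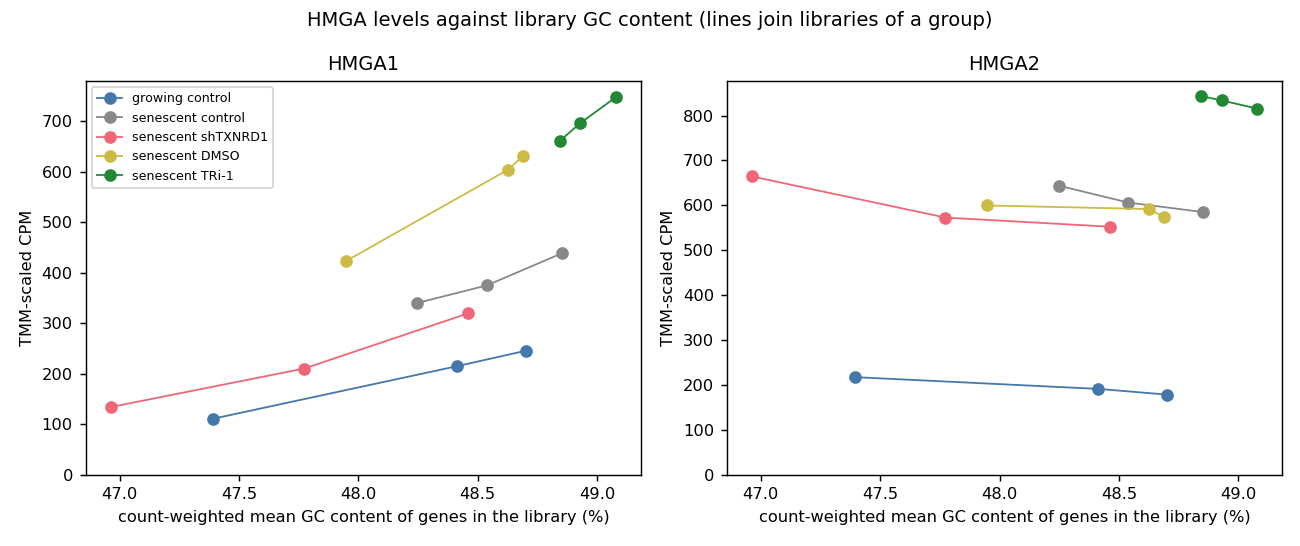
TMM-scaled CPM of HMGA1 (left) and HMGA2 (right) against the count-weighted mean GC content (%) of the genes read in each library, with lines joining the 3 libraries of a group. HMGA1 climbs with GC content along each of the 5 lines and HMGA2 descends along each of them, while the HMGA2 levels of growing cells stay apart from all senescent ones.

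The upstream sequence of HMGA1 is shown for its base composition: the 250 bases before its first listed start, at chr6:34236623-34236872 on the plus strand (RefSeq, GRCh38.p14), are 74.8% GC. They held no CCAAT box on either strand and 5 copies of GGGCGG, the GC box read by SP factors, counted on both strands. Of 35116 windows of this length before gene starts, 13.9% held 3 or more copies of GGGCGG.
HMGA1 upstream: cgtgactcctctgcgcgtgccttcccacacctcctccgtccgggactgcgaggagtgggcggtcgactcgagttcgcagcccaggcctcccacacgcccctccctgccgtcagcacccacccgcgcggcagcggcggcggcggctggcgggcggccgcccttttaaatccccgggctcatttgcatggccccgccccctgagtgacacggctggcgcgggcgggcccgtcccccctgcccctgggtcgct

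HMGB2, the HMGB protein most tied to dividing cells, stood at 93.0, 84.8 and 81.7 CPM in growing cells and at 9.89, 10.2 and 9.90 CPM in the senescent control. With the hairpin it was at 14.5, 15.2 and 16.2 CPM. With DMSO it was at 16.8, 14.3 and 15.3 CPM, and with TRi-1 at 10.996, 10.5 and 9.64 CPM. All growing libraries were far above all senescent ones, and the hairpin and DMSO libraries overlapped each other and were above the senescent control and TRi-1 libraries, which also overlapped. HMGB2 was 8.64-fold lower in the senescent control than in growing cells (log2 fold change -3.11 ± 0.08, SE; edgeR adjusted p = 5.48e-13). It was 1.53-fold higher with the hairpin than in the senescent control (0.61 ± 0.08, edgeR adjusted p = 2.43e-05) and 1.49-fold lower with TRi-1 than with DMSO (-0.58 ± 0.08, edgeR adjusted p = 2.19e-04). The lowest count of any HMG gene in any library was 198, of HMGB2, with an exact Poisson 95% interval from 171 to 228 that covers counting error only.

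HMGB3, the HMGB protein of blood stem cells and the embryo, stood at 55.2, 47.4 and 45.5 CPM in growing cells and at 20.1, 16.7 and 19.3 CPM in the senescent control. The hairpin libraries stood at 24.0, 26.4 and 30.2 CPM, the DMSO libraries at 22.4, 20.5 and 18.8 CPM and the TRi-1 libraries at 15.4, 15.7 and 16.1 CPM. Growing cells were above all senescent libraries, the hairpin libraries above all other senescent ones, and the TRi-1 libraries below all others. HMGB3 was 2.64-fold lower in the senescent control than in growing cells (-1.40 ± 0.10, edgeR adjusted p = 4.26e-08). It was 1.44-fold higher with the hairpin (0.53 ± 0.10, edgeR adjusted p = 7.93e-04) and 1.303-fold lower with TRi-1 than with DMSO (-0.38 ± 0.11, edgeR adjusted p = 0.0213). The TRi-1 call was lost without DMSO replicate 1 (-0.31, adjusted p = 0.0964) or 2 (-0.38, 0.0543) and without TRi-1 replicate 1 (-0.37, 0.0716) or 2 (-0.38, 0.0600).

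HMGB1, the most abundant HMGB protein of most cells and the alarm signal among the 5, stood at 371, 341 and 329.7 CPM in growing cells and at 163, 159 and 171 CPM in the senescent control. The hairpin libraries stood at 167, 176 and 198 CPM, the DMSO libraries at 194, 186 and 180.3 CPM and the TRi-1 libraries at 137, 138 and 141 CPM. Growing cells were above all senescent libraries and the TRi-1 libraries below all others, while the hairpin libraries overlapped those of the senescent control. HMGB1 was 2.11-fold lower in the senescent control than in growing cells (-1.08 ± 0.07, edgeR adjusted p = 5.79e-09) and 1.35-fold lower with TRi-1 than with DMSO (-0.43 ± 0.07, edgeR adjusted p = 4.96e-04). With the hairpin the difference was 0.13 ± 0.07, with an interval from -0.01 to 0.28, and was not called (edgeR adjusted p = 0.118). Its sign turned (-0.050) when gene GC content, which is 39.2% for HMGB1, was corrected for. With the same correction the senescence difference of HMGB1 was -0.84 and the TRi-1 difference -0.29. Both were smaller in size but still called (edgeR adjusted p = 7.66e-14 and 9.41e-07).

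HMGB1 is also the member whose counts were least certain, because the genome holds many processed copies of it. The count table lists 47 numbered HMGB1 pseudogenes, of which 23 had counts, 13757 in all against 67939 for HMGB1. Of these, 13136 belonged to HMGB1P5, with 443 to 1953 counts per library, which is 15.3 to 23.6% of the HMGB1 counts. Of 1037 distinct 75-base windows of the HMGB1P5 transcript, 472 (45.5%) occur letter for letter in HMGB1, so the counting could have split reads between them. Of 7869 distinct windows of HMGB1, 594 (7.55%) occur in another gene on the same strand. HMGB1P5 fell by 1.11 on the log2 scale with senescence (edgeR adjusted p = 3.22e-05) and by 0.69 with TRi-1 against DMSO (adjusted p = 0.00727), and with the hairpin its difference of 0.24 was not called (adjusted p = 0.216). Adding the counts of each gene's pseudogenes to the gene changed no call of the 5 HMG genes. The shared share of windows was 1.33% for HMGA1, 0.0255% for HMGA2, 0 for HMGB2 and 1.08% for HMGB3. The strand used in counting is not given in the sources used here, and 317 windows of HMGA2 occur in other genes only on the opposite strand, 311 of them in HMGA2-AS1, so reads of such partners cannot be told apart.

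**Figure D3:**
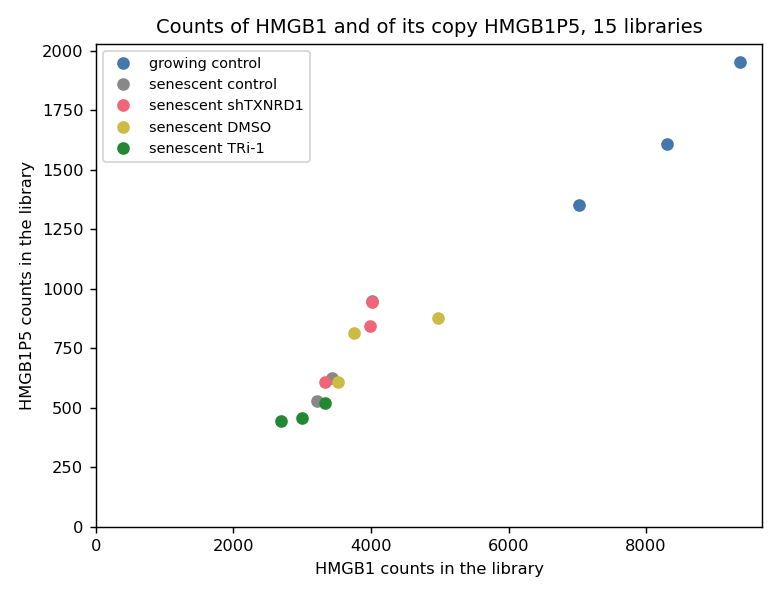
Deposited counts of HMGB1P5 (vertical) against those of HMGB1 (horizontal) in each of the 15 libraries, both axes from 0, coloured by group; senescent control replicate 1 lies under a hairpin point. HMGB1P5 runs from 443 to 1953 counts per library, with the TRi-1 libraries lowest and the growing libraries highest.

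The upstream sequences of HMGB1 and HMGB3, genes that both fell with senescence and with TRi-1, are shown because each held 3 CCAAT boxes in the 250 bases before its first listed start, all in the forward direction. The HMGB1 stretch lies at chr13:30465937-30466186 on the minus strand and the HMGB3 stretch at chrX:150983085-150983334 on the plus strand (RefSeq, GRCh38.p14). The capitals mark CCAAT and, at 1 place in HMGB3, TTTGAA, the core of the cell-cycle homology region.
HMGB1 upstream: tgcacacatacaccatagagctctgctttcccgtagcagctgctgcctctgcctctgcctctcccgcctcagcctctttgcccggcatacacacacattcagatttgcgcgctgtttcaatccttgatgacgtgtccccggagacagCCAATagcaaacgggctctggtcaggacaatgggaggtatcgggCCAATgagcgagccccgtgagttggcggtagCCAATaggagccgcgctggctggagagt
HMGB3 upstream: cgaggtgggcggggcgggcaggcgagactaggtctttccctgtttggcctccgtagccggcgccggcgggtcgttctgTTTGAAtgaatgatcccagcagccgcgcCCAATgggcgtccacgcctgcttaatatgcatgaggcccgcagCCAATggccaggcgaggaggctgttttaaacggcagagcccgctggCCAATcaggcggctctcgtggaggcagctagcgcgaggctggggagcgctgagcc
Among 35116 windows of this length before gene starts, counting both strands, 32.0% held CCAAT and 2.93% held 3 or more, 13.3% held TTTGAA and 42.6% held GGGCGG. The E2F sites TTTCCCGC, TTTCGCGC, TTTGCCGC and TTTGGCGC were also sought. They had no match at any listed start of HMGA1, HMGB1 or HMGB3, and 2.79% of windows held one. The first-start window of HMGB1 held no TTTGAA, and those of HMGA1, HMGB1 and HMGB3 held no TATAAA, which 10.7% of windows held. In the windows printed, no match of 1 motif shares a base with a match of another, and a match is a description only. The table lists 3 starts for HMGB1 and 2 each for HMGA1 and HMGB3, and which of them these cells used was not analysed here. At HMGB1 starts 2 and 3 CCAAT had 1 and 0 matches, at HMGB3 start 2 it had 0 and at HMGA1 start 2 it had 1. The window of HMGB1 start 2 also held 1 TTTGAA. No upstream sequence was at hand for HMGB2, which fell in the same comparisons, or for HMGA2.

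Set side by side over the comparison of senescent control with growing cells, 5 of 5 HMG genes were called changed, HMGA1 and HMGA2 higher and HMGB1, HMGB2 and HMGB3 lower. The background was high: 56.9% of all genes tested were called in this comparison, 27.4% higher and 29.5% lower. The libraries of both groups did not overlap for any of the 5 genes, as for 63.6% of the genes tested. The median log2 fold change of the 5 was -1.08, against 0.03 over all genes tested.

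With the hairpin against the senescent control, HMGB2 and HMGB3 were called higher and HMGA1 lower, where 25.8% of the genes tested were called higher, 24.8% lower and 50.7% either way. The libraries did not overlap for these 3 genes, as for 55.4% of the genes tested. With TRi-1 against DMSO, HMGA2 was called higher and HMGB1, HMGB2 and HMGB3 lower, where 7.64% of the genes tested were called higher, 12.2% lower and 19.9% either way. HMGA1 was the member not called there, and the libraries did not overlap for any of the 5 genes, as for 48.7% of the genes tested. The median log2 fold change of the 5 genes was 0.13 with the hairpin (-0.01 over all genes tested) and -0.38 with TRi-1 (0.01 over all genes tested). The senescence and hairpin comparisons share the senescent control libraries, so they are not independent of each other.

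The hairpin and TRi-1 target the same enzyme at the RNA and at the protein level, and the difference between their effects was tested directly as the hairpin effect minus the TRi-1 effect, each against its own control. HMGB1 (0.56 ± 0.09, SE; edgeR adjusted p = 3.4e-04), HMGB2 (1.19 ± 0.12, adjusted p = 2.69e-06) and HMGB3 (0.91 ± 0.15, adjusted p = 2.74e-04) were called higher in this difference. HMGA2 was called lower (-0.53 ± 0.11, edgeR adjusted p = 0.00163), and HMGA1 was not called (-1.14 ± 0.44, adjusted p = 0.0543). Over all genes tested 41.7% were called, 22.1% higher and 19.5% lower. The HMGB2 and HMGB3 effects had opposite signs under the hairpin and TRi-1, and both were called in each. For HMGB1 and HMGA2 the TRi-1 effect was called and the hairpin effect was not. Any gap between DMSO and senescent control also enters the difference of effects. HMGB2 had such a gap, being called higher with DMSO (0.63 ± 0.08, edgeR adjusted p = 1.36e-04). Between the hairpin and TRi-1 libraries themselves, HMGB2 was 0.56 ± 0.08 higher with the hairpin (edgeR adjusted p = 4.70e-05). With gene GC content corrected for, the HMGB1 difference was 0.24 and still called.

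**Figure D4:**
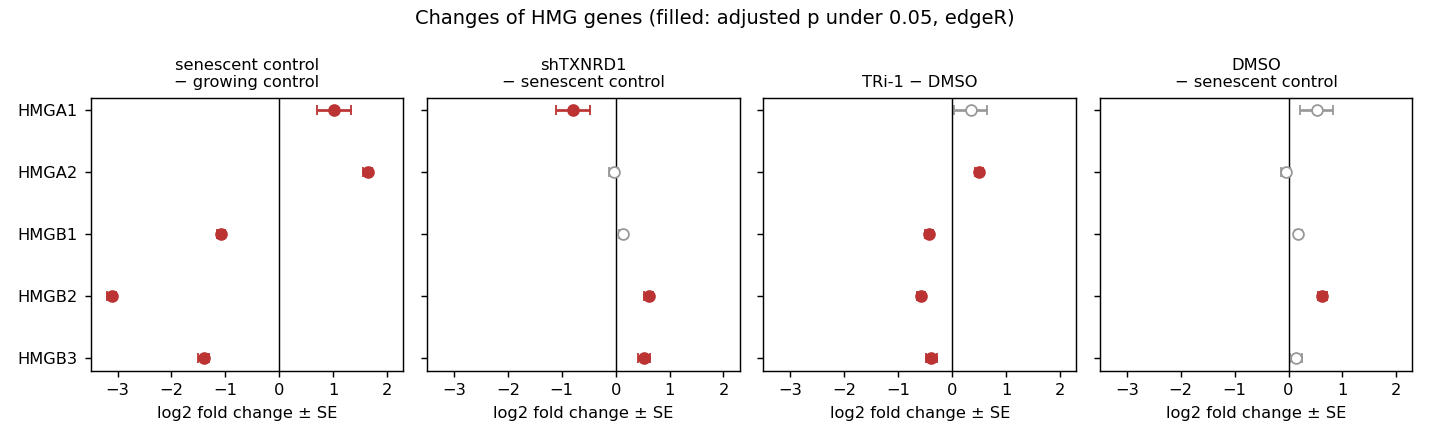
Log2 fold change with SE of the 5 HMG genes in 4 comparisons, from the edgeR fit over all 15 libraries; filled points have an adjusted p under 0.05. In senescence the HMGA genes lie to the right of 0 and the HMGB genes to the left, HMGB2 and HMGB3 lie on opposite sides of 0 for the hairpin and TRi-1, and with DMSO only HMGB2 is filled.

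DMSO-treated senescent cells differed from the senescent control in HMGB2, which was 1.54-fold higher (log2 fold change 0.63 ± 0.08, SE; edgeR adjusted p = 1.36e-04). The other 4 members were not called, at 0.52 ± 0.31 for HMGA1, -0.06 ± 0.08 for HMGA2, 0.18 ± 0.07 for HMGB1 and 0.14 ± 0.11 for HMGB3 (edgeR adjusted p = 0.304, 0.721, 0.0776 and 0.452). With gene GC content corrected for, HMGA1 (0.61, edgeR adjusted p = 2.35e-05) and HMGB1 (0.12, adjusted p = 0.00409) became calls, both higher with DMSO. In this comparison 8.36% of the genes tested were called higher and 7.87% lower, 16.2% either way. The libraries did not overlap for HMGB1 and HMGB2, as for 39.7% of the genes tested. The HMGB2 level with TRi-1, 10.4 ± 0.688 CPM (SD, n = 3), was that of the senescent control, 10.01 ± 0.194 CPM, within the spread of the replicates (edgeR adjusted p = 0.757). This comparison shares its DMSO libraries with the TRi-1 comparison and its senescent control libraries with the senescence and hairpin comparisons. Whether DMSO and senescent control cultures were handled at the same time is not given in the labels.

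The order of the 5 groups differed between the genes. HMGA2 rose from growing cells (196 ± 19.9 CPM, SD, n = 3) to DMSO, hairpin and senescent control (589 ± 13.0, 597 ± 59.6 and 612 ± 29.9 CPM), which did not differ beyond their spread, to TRi-1 (831 ± 14.2 CPM). HMGA1 went from growing cells (191 ± 70.5 CPM) through hairpin (221 ± 93.3), senescent control (384 ± 50.01) and DMSO (552 ± 113) to TRi-1 (701 ± 43.5 CPM), and of the neighbours only hairpin and senescent control were called different. HMGB1 went from TRi-1 (139 ± 2.12 CPM) through senescent control (164 ± 6.51), hairpin (180.0 ± 16.0) and DMSO (187 ± 6.95) to growing cells (347 ± 21.4 CPM). Of its neighbours TRi-1 and senescent control were called different (edgeR adjusted p = 0.0234), and so were DMSO and growing cells (adjusted p = 4.17e-08). The HMGB2 order was senescent control and TRi-1, then hairpin and DMSO (15.3 ± 0.837 and 15.5 ± 1.26 CPM), then growing cells (86.5 ± 5.89 CPM), with calls between these 3 steps and none within them. For HMGB3 the TRi-1 (15.7 ± 0.366 CPM), senescent control (18.7 ± 1.78) and DMSO (20.6 ± 1.84) groups were not called different from the next, and hairpin (26.9 ± 3.12) and growing cells (49.4 ± 5.15 CPM) each stood above the group before. Over all genes tested, the share called was 58.4% between growing cells and DMSO, 62.9% between growing cells and hairpin, 15.4% between senescent control and TRi-1, 54.1% between DMSO and hairpin and 55.4% between hairpin and TRi-1.

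The genes of division give the setting of the HMGB values. Of 16 G2/M genes (mitotic kinases, motors and spindle proteins) 16 were called lower in the senescent control than in growing cells, with a median log2 fold change of -2.82, and of 16 S-phase genes 16 were called lower, with a median of -1.67. MKI67, the proliferation marker, fell from 228 to 32.5 CPM (-2.81 ± 0.07, edgeR adjusted p = 2.51e-13). With TRi-1 against DMSO 11 G2/M genes were called lower and 0 higher (median -0.52), among them MKI67 (57.2 to 34.3 CPM) and TOP2A, the topoisomerase of mitosis (68.0 to 37.1 CPM), while 2 S-phase genes were called lower and 0 higher (median -0.01). With DMSO against the senescent control 14 G2/M genes were called higher and 0 lower (median 0.63), and 2 S-phase genes lower. With the hairpin 9 of 16 G2/M genes were called lower and 1 higher (median -0.52), and 12 of 16 S-phase genes were called lower and 1 higher (median -0.45), whereas HMGB2 and HMGB3 were called higher and HMGB1 was not called. MKI67 fell there from 32.5 to 14.7 CPM (-1.14 ± 0.07, edgeR adjusted p = 1.32e-08). The difference between the hairpin and TRi-1 effects was called higher for 4 and lower for 5 of the 16 G2/M genes (median -0.07). Over all genes tested 22.1% were called higher and 19.5% lower in that difference. Higher and lower calls made up 27.4 and 29.5% of all genes tested in senescence and 25.8 and 24.8% with the hairpin. They made up 7.64 and 12.2% with TRi-1 and 8.36 and 7.87% with DMSO.

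**Figure D5:**
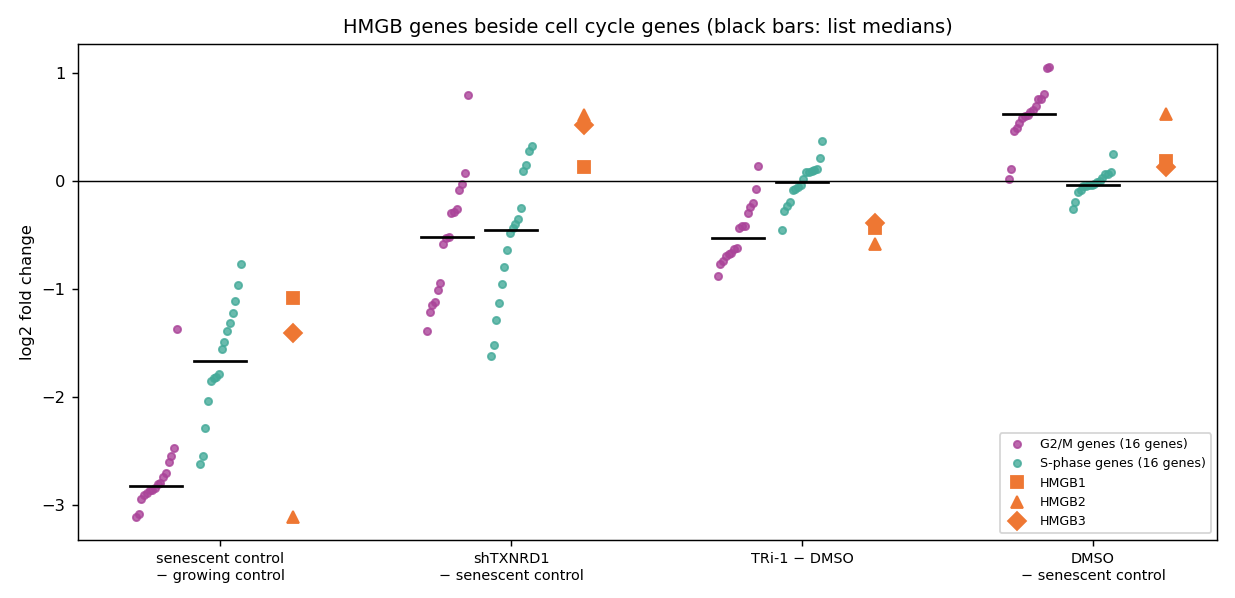
Log2 fold change of HMGB1, HMGB2 and HMGB3 (orange) beside 16 G2/M and 16 S-phase genes (points; black bars are list medians) in 4 comparisons. HMGB2 lies near the G2/M median in senescence (-3.11 and -2.82), TRi-1 (-0.58 and -0.52) and DMSO (0.63 and 0.63), and on the other side of 0 from it with the hairpin (0.61 and -0.52).

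Other genes with an HMG domain or nucleosome-binding HMG motif moved as follows. In the senescent control 2 of 18 tested (11.1%) were called higher and 14 (77.8%) lower than in growing cells (median -0.45), where the shares over all genes tested were 27.4 and 29.5%. HMGN2, a nucleosome-binding HMG protein, fell from 279 to 81.5 CPM (-1.78 ± 0.11, edgeR adjusted p = 4.36e-09), and TOX, a DNA-binding factor with an HMG box, from 10.2 to 0.488 CPM. With the hairpin 9 of the 18 were called higher and 5 (27.8%) lower (median 0.23), where the shares over all genes tested were 25.8 and 24.8%. TFAM, the HMG-box protein that packs mitochondrial DNA, rose there from 28.3 to 63.1 CPM (1.16 ± 0.10, edgeR adjusted p = 3.42e-07). HMGN5 rose with the hairpin (0.85 ± 0.12, edgeR adjusted p = 3.94e-05) and fell with TRi-1 (-0.74 ± 0.13, adjusted p = 9.88e-04), from 3.80 to 2.28 CPM. With TRi-1 1 of the 18 was called higher and 6 lower (median -0.08), beside 7.64 and 12.2% of all genes tested. With DMSO against the senescent control 3 were called higher and 2 lower, beside 8.36 and 7.87% of all genes tested.

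Genes of the chromatin structures in which HMGA proteins are known to sit were also counted. Of 14 genes of senescence-associated heterochromatin foci, 2 (14.3%) were called higher and 8 (57.1%) lower in the senescent control (median -0.48), beside 27.4 and 29.5% of all genes tested. CBX5, the heterochromatin protein HP1 alpha, fell from 221 to 150 CPM with senescence (-0.56 ± 0.09, edgeR adjusted p = 6.84e-05) and to 89.7 CPM with the hairpin (-0.74 ± 0.09, adjusted p = 7.23e-06). Also with the hairpin ASF1A, a histone chaperone of focus formation, rose from 18.8 to 39.3 CPM (1.07 ± 0.10, edgeR adjusted p = 1.02e-06). There 3 of the 14 (21.4%) were called higher and 4 (28.6%) lower, shares close to the 25.8 and 24.8% of all genes tested. With TRi-1 0 of the 14 were called in either direction by edgeR at the adjusted threshold. With DMSO 0 were called higher and 1 lower. Over all genes tested the shares called higher and lower were 7.64 and 12.2% with TRi-1 and 8.36 and 7.87% with DMSO.

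Of 7 nuclear lamina genes 5 (71.4%) were called lower and 0 higher with senescence, beside 29.5 and 27.4% of all genes tested. LMNB1, whose loss is a common marker of senescence, fell from 57.8 to 5.88 CPM (-3.29 ± 0.11, edgeR adjusted p = 4.02e-12). LMNB1 stood at 11.3 CPM with DMSO, where it was called higher than in the senescent control (0.93 ± 0.10, adjusted p = 4.05e-05), and at 6.22 CPM with TRi-1, where it was called lower than with DMSO (-0.85 ± 0.10, adjusted p = 6.52e-05). With the hairpin it was not called (0.05 ± 0.11), and 3 lamina genes (42.9%) were called lower and 0 higher, beside 24.8 and 25.8% of all genes tested. With TRi-1 2 of the 7 were called lower than with DMSO and 0 higher, and with DMSO 2 were called higher than in the senescent control and 0 lower. Over all genes tested 12.2% were called lower with TRi-1 and 8.36% higher with DMSO.

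For HMGB1 outside the nucleus, the genes of its receptors and redox partners were read in the same libraries. Of 10 tested receptors and adaptors 6 were called higher and 2 lower with senescence, beside 27.4 and 29.5% of all genes tested. THBD, thrombomodulin, which binds HMGB1, stood at 0.204 CPM in growing cells and 29.7 CPM in the senescent control, and CXCR4, which reads HMGB1 bound to CXCL12, at 0 and 1.51 CPM. CXCL12 itself was 1 of the 2 called lower, from 6.65 to 1.78 CPM (-1.91 ± 0.18, edgeR adjusted p = 6.36e-07). TLR4, the receptor of disulfide HMGB1, was at 0.0269 to 0.164 CPM in the group means and was not tested. With the hairpin 4 were called higher and 2 lower, beside 25.8 and 24.8% of all genes tested. LY96, the partner of TLR4, was among those called higher (9.15 to 20.4 CPM, 1.16 ± 0.14, edgeR adjusted p = 1.02e-05). With TRi-1 0 were called higher and 1 lower, TLR2, from 1.18 to 0.279 CPM (-2.07 ± 0.28, adjusted p = 1.55e-04). With DMSO 1 was called higher and 4 lower. Over all genes tested the shares called higher and lower were 7.64 and 12.2% with TRi-1 and 8.36 and 7.87% with DMSO.

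Of 5 enzymes that set or read the redox state of HMGB1, 2 were called higher and 3 lower with senescence, where over all genes tested the shares were 27.4 and 29.5%. TXN, the thioredoxin that TXNRD1 reduces, fell from 353 to 210 CPM with senescence (-0.75 ± 0.09, edgeR adjusted p = 5.52e-06). TXN rose with the hairpin (0.38 ± 0.09, edgeR adjusted p = 0.00242) and with TRi-1 (0.46 ± 0.09, adjusted p = 0.00237), and the difference between both effects was not called (-0.08 ± 0.13, adjusted p = 0.644). With the hairpin 1 of the 5 was called higher and 2 lower, TXNRD1 included. With TRi-1 1 was called higher and 0 lower, and with DMSO 0 higher and 2 lower. Of 5 genes of the SET complex, which holds HMGB2, 0 were called higher and 3 lower with senescence, and SET itself fell from 414 to 223 CPM (-0.89 ± 0.08, edgeR adjusted p = 4.38e-07). With the hairpin 2 of these were called higher and 1 lower, with ANP32A, the PP32 protein of the complex, going from 62.9 to 129 CPM (1.04 ± 0.08, adjusted p = 1.23e-07). With TRi-1 2 were called higher and 0 lower, NME1 (0.52 ± 0.05) and APEX1 (0.31 ± 0.06), and with DMSO 0 higher and 2 lower. For both lists the shares of all genes tested called higher and lower were 27.4 and 29.5% with senescence and 25.8 and 24.8% with the hairpin. They were 7.64 and 12.2% with TRi-1 and 8.36 and 7.87% with DMSO.

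Beside these lists, 7 of 10 fibroblast markers were called lower with the hairpin and 7 with TRi-1, and 2 and 1 were called higher. Their summed level was 20848 to 23834 CPM in the senescent control, 14234 to 18244 CPM with the hairpin, 22649 to 25499 CPM with DMSO and 16309 to 17165 CPM with TRi-1. With senescence 1 was called higher and 6 lower, and with DMSO 2 higher and 3 lower. Over all genes tested the shares called higher and lower were 25.8 and 24.8% with the hairpin and 7.64 and 12.2% with TRi-1. They were 27.4 and 29.5% with senescence and 8.36 and 7.87% with DMSO. The part of the fibroblast markers in the HMG differences was not tested.

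The genes whose pattern over the 15 libraries was most like that of an HMG gene were found by the root mean square difference of log2 CPM, each gene centred on its own mean, among 11911 genes. Nearest to HMGB1 were FAM98B (0.08), POT1, which caps telomeres (0.08), and TRAM1 (0.09). Nearest to HMGB3 were LAMA4 (0.10), ARHGAP19 (0.11) and RHOBTB3 (0.11). Nearest to HMGA2 were SVIP (0.10), LNCOG (0.14) and the histone gene H4C8 (0.15). HMGA1 had TIMP1, the metalloproteinase inhibitor, as nearest (0.14), then XYLT2 (0.19) and NUDT22 (0.19). HMGB2 had ROR1 (0.16), LIN7A (0.19) and LIFR (0.23). The points share libraries, depth and GC content, and the distances are descriptions.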

How the data were processed

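RNA of 15 libraries was counted per gene by the authors, and the deposited values are counts, whole numbers with no scaling. RSEM 1.2.3, DESeq2 and the builds hg19 and mm10 stand in the submitters' processing notes, without roles, with aligner, annotation, strand and handling of shared reads not given in the sources used here. Genes were filtered (filterByExpr), scaled by TMM and tested with edgeR 4.0.16 (quasi-likelihood, 1 coefficient per group, 10 residual degrees of freedom, Benjamini-Hochberg over 15994 genes, threshold 0.05). Ensembl identifiers were given symbols from the supplied name table; 0.68% of counts had none. The HMG genes, the gene lists and the rule for other named genes (the 2 smallest p-values per list and comparison, 9 genes with known roles beside HMG proteins, and 3 nearest patterns per member) were chosen with earlier results of these data known. DESeq2 1.42.0, limma-voom, other scalings and filters, GC correction, a replicate block and leaving out libraries were alternatives; leaving out 3 or 4 low-GC libraries and adding pseudogene counts were chosen after seeing the data. An exact permutation of 3 against 3 cannot go below p = 0.1. On simulated counts, changes of 2-fold were recovered at 76.12% (difference of effects) to 97.01% (TRi-1) per comparison, and changes of 1.5-fold at 38.81% (difference of effects) to 71.64% (senescence). Far fewer genes were changed in the simulations than were called here, all above a minimum mean level and in a single group. The simulated libraries had no shifts in GC content, so recovery in the real data may differ. The result of 1 gene list is not reported here.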

Additional observations from a re-analysis of the deposited data

Results flagged for a closer look

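For 4 HMG genes the effect of the hairpin differed from that of TRi-1 by the direct test of that difference in edgeR: HMGA2 by -0.53, HMGB1 by 0.56, HMGB2 by 1.19 and HMGB3 by 0.91 on the log2 scale. The adjusted p-values were 0.00163, 3.4e-04, 2.69e-06 and 2.74e-04. Each effect was taken against its own control, so any gap between DMSO and senescent control enters these values. For HMGB2 that gap was 0.63 ± 0.08 and was called.

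RPSAP52, a pseudogene transcribed antisense to HMGA2, is described by its counts only. Its counts summed over 3 libraries were 30 in growing cells, 77 in the senescent control, 48 with the hairpin, 151 with DMSO and 88 with TRi-1. HMGB1P3, an HMGB1 pseudogene, had 0 counts in growing cells, 25 in the senescent control, 2 with the hairpin, 15 with DMSO and 57 with TRi-1. Both are low counts, and no test of either gene is reported. For RPSAP52 every senescent control, DMSO and TRi-1 library was above every growing one, and for HMGB1P3 every TRi-1 library had at least 14 counts against 0 in each growing library.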

How the results depend on the processing

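Over 505 refitted log2 fold changes of the 5 HMG genes, 458 kept their direction and their side of the threshold, 24 became calls, 17 lost a call and 6 changed sign. HMGA2, HMGB1, HMGB2 and HMGB3 in senescence and in the difference of effects, HMGB2 and HMGB3 with the hairpin, and HMGA2, HMGB1 and HMGB2 with TRi-1 kept theirs under every alternative run. HMGA1 in the difference of effects became a call with the compared groups fitted alone (-1.14), DESeq2 (-1.15), limma-voom (-1.24), GC correction (-0.49; -0.49 with the replicate block) and without the lowest-GC library of 3 groups (-0.72), and 2 members instead of 1 were then called lower. The HMGA1 hairpin call was lost with those groups alone (-0.72), no filter (-0.80), the replicate block (-0.78) and upper-quartile scaling (-0.75), and 0 members were then called lower. HMGA2 with the hairpin was 0.024 with those groups alone and 0.013 with upper-quartile scaling, and a call of -0.12 with GC correction, with that correction and the block, and without those 3 low-GC libraries, where 2 members were called lower. Without all 4 low-GC libraries the HMGA1 hairpin call was lost (-0.27) and HMGA2 became a call (-0.15). HMGB1 with the hairpin was a call of 0.19 with those groups alone and 0.18 with upper-quartile scaling, and -0.050 with GC correction, alone or with the block. HMGA1 in senescence lost its call with no filter (0.99), leaving 1 member higher. With DMSO, HMGA1 became a call with GC correction (0.61, also 0.61 with the block) and without 3 or 4 low-GC libraries (0.68 each). HMGB1 with DMSO became one with the groups alone (0.21), a mean CPM of at least 5 (0.20), GC correction (0.12, and 0.12 with the block) and without 3 or 4 low-GC libraries (0.16 each), so that 2 or 3 members were called higher. The causes were not tested.

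Leaving out 1 library at a time, HMGA1 ran from -1.51 to -0.88 in the difference of effects (1 to 2 members lower), from -1.17 to -0.54 with the hairpin (0 to 1 member lower) and from 0.74 to 1.24 in senescence (1 to 2 members higher). With the hairpin HMGA2 ran from -0.12 to 0.0060, above 0 without senescent control replicate 3 (0.00054) or hairpin replicate 1 (0.0060), and HMGB1 from 0.056 to 0.17, called without hairpin replicate 1. HMGB3 with TRi-1 ran from -0.44 to -0.31. Over all genes the calls with TRi-1 were 3176, and 5381 with those groups alone, 5678 with GC correction, 5416 with the block added and 5240 without 4 low-GC libraries. With DMSO they were 2595, and 5465 and 5183 with GC correction without and with the block, and 3981 and 4787 without 3 and 4 low-GC libraries.

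Same-numbered replicates showed no clear pairing. Their deviations correlated from -0.28 to 0.06 in senescence and 0.03 to 0.32 with the hairpin. The range was -0.15 to -0.00083 with TRi-1 and -0.10 to 0.13 with DMSO. In these comparisons 1, 2, 0 and 2 of 6 libraries correlated best with their own number. Library GC content was not removed from the deviations, so the check cannot show that replicates were unpaired. The replicate block moved all-gene calls from 8105 to 7705 with the hairpin and changed no call of an HMG gene but HMGA1 with the hairpin. The lowest HMG count was 198, and what depth limits was not tested beyond the simulated counts, where 1.5-fold changes were recovered at 38.81% in the difference of effects and 68.66% with the hairpin and with TRi-1. Those rates hold for the simulated setting, in which far fewer genes were changed than were called here.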

Other observations

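The pseudogene HMGB1P6 had 107 counts in growing replicate 1 and 0 in each of the 14 other libraries, although HMGB1 had 7018 to 9358 counts in all 3 growing libraries. HMGB1P8 had 31, 24 and 21 counts in the growing libraries and 6, 5 and 10 with TRi-1. HMGA2-AS1 had 29 counts in all 15 libraries together. These genes were chosen after their values were seen.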
